A study of Mus musculus with 8 samples.

Results

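Interferon response genes are the genes whose transcripts accumulate after interferon is sensed. The 42 described here were listed by symbol and not by a cut on their values, but with earlier results of these data known. Counts of members set beside shares of all genes are therefore descriptive. All 42 were found among the 24306 genes of the arrays. They were covered by 73 spots, 19 of them by 1 spot each, and for the other 23 the spot of highest mean over the 8 arrays was used. The arrays measured RNA of cells that FACS had separated from lungs of mouse embryos of day E18.5, in 4 groups of 2 biological replicates, control and experimental AECI and control and experimental AECII. AECI and AECII are alveolar epithelial cells of type I, the flat cells of gas exchange, and of type II, the cells that make surfactant. The experimental samples are labelled Fgfr2bflox and came from pregnant females injected with tamoxifen on E14.5 and again on E15.5. The controls came from another set of females and were prepared in the same way. By the series title, Fgfr2b signalling was inhibited in cells that express Sftpc, a surfactant protein gene of AECII. The sources used here do not give the sorting gate, the driver of recombination, the full control genotype or how many embryos went into a sample. Whether each replicate came from separate animals is stated only by the word biological. Nor is it given whether AECI and AECII samples came from the same animals. A p-value here rests on the spread among 8 samples, taken as independent.

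Interferons of type I and type III bind receptors at the cell surface and act through a complex that contains the transcription factors STAT2 and IRF9 and binds the interferon-stimulated response element (ISRE). Interferon gamma acts mainly through the gamma-activated sequence (GAS). The genes switched on include sensors of viral RNA and DNA, proteins that block viral replication, the ubiquitin-like modifier ISG15, GTPases that act on intracellular pathogens, and the machinery that prepares peptides for antigen presentation. Epithelial cells of the airways and alveoli respond to interferon as part of the defence of the lung against viruses.

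Values are log2 signals, on a scale where the lower quartile, median and upper quartile of all spots were 3.07, 5.18 and 8.03, with a lowest value of 1.34. By their mean over 8 arrays, 2 members (Ddx60 and Oas3) lay below that lower quartile, 16 between it and the median, 16 between the median and the upper quartile, and 8 above it. The labelled populations differed in their markers, with 17 of 20 AT1 markers lower and 9 of 20 AT2 markers higher in control AECII by limma, although the AT2 list also averaged 12.4 to 12.6 on the AECI arrays. Xist, an RNA of the inactive X chromosome, stood at 3.96 on AECI control replicate 1 and 6.53 on AECII control replicate 2, against 13.3 to 13.9 on the other 6 arrays. The Y-linked Eif2s3y read 10.6 and 10.4 on the same 2 arrays, against 4.33 to 5.93 on the others. The replicates of each control group therefore differed in the sex of the embryos they came from. These 2 arrays, called here the arrays of male pattern, recur below.

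The highest mean levels of the interferon response genes fell on 1 array of each control group. The mean over the 42 members was 6.88 on AECI control replicate 1 and 6.22 on replicate 2, and 5.59 on AECII control replicate 1 and 6.37 on replicate 2. It was 6.06 and 6.32 on the AECI experimental arrays and 5.84 and 5.77 on the AECII experimental arrays. The 2 highest means were thus those of the arrays of male pattern, and the lowest was that of AECII control replicate 1, the partner of the second of them. The second highest mean was close to that of AECI experimental replicate 2, where the SD between replicates of this mean was 0.376. The median over members was 6.55 and 6.21 on the arrays of male pattern and 4.77 to 5.67 on the other 6. AECI control replicate 1 was the highest array for 15 members, and for 13.6% of all genes. AECII control replicate 2 was the highest for 9 members, against 8.81% of genes. AECI control replicate 2, without the male pattern, was the highest for 7 members, against 15.0% of genes.

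**Figure D1:**
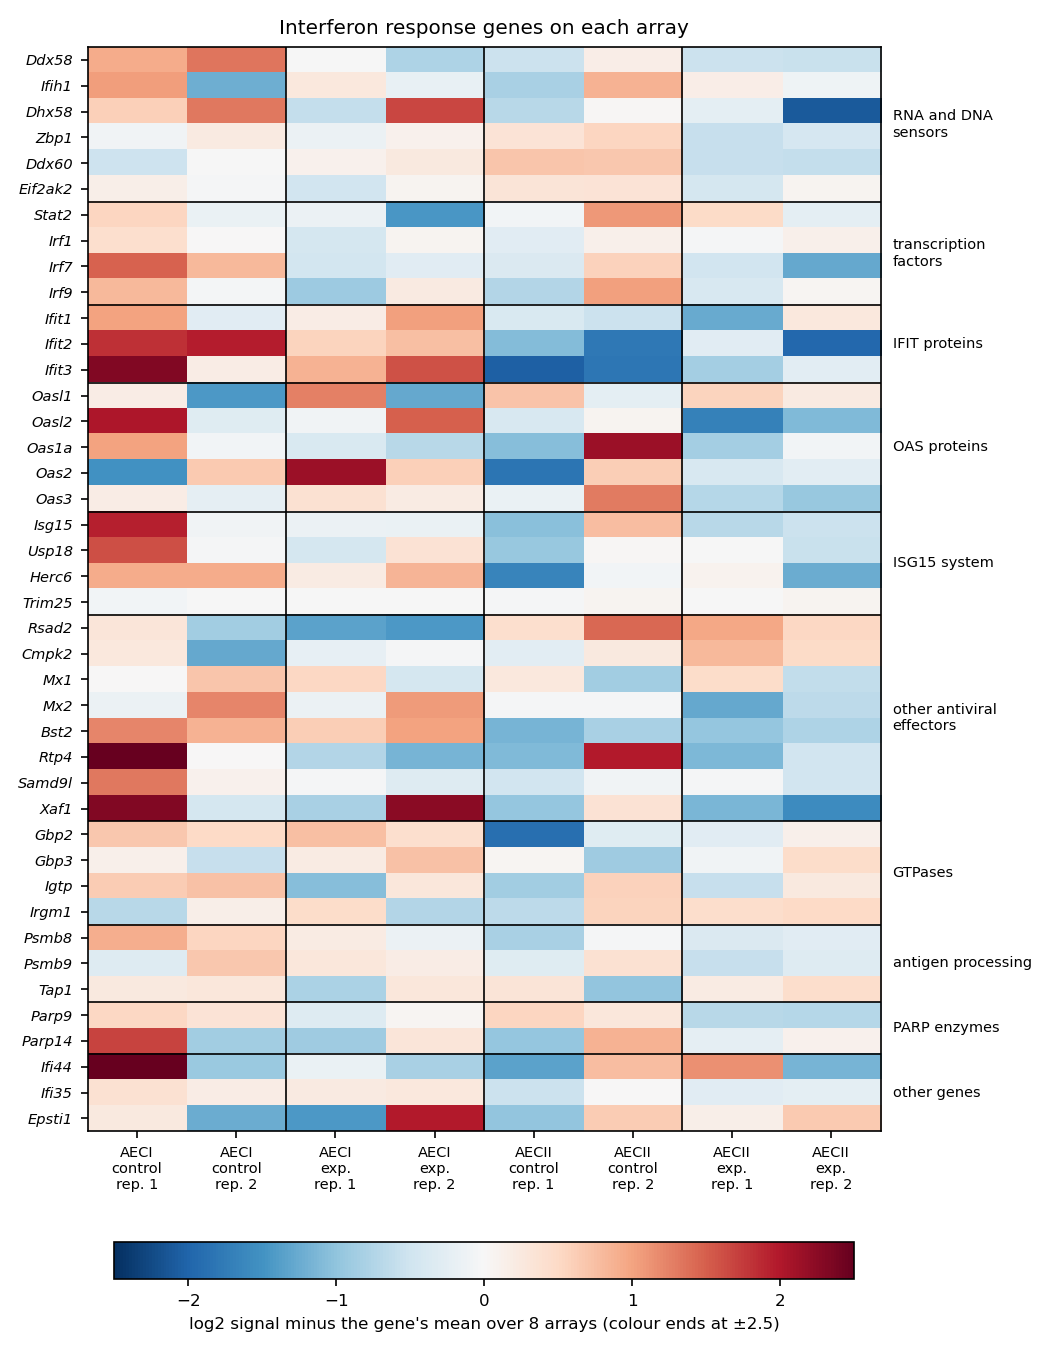
Log2 signal of each of the 42 interferon response genes (rows, grouped by role) on each of the 8 arrays (columns, 2 replicates per group), as the difference from that gene's mean over all arrays. Red cells gather in the columns of AECI control replicate 1, the highest array for 15 members, and, for other genes, of AECII control replicate 2, the highest for 9.

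In the control groups, 24 of 42 members were higher in AECI control replicate 1 than in replicate 2 and also higher in AECII control replicate 2 than in replicate 1, a pattern that 26.7% of all genes showed. The opposite held for 5 members and 27.8% of genes. Both differences exceeded 0.5 on the log2 scale in 14 members against 6.04% of genes, and both were below -0.5 in 1 member, Mx1, against 6.25%. Taken one population at a time, AECI control replicate 1 lay over replicate 2 by more than 1 in 16 members (12.5% of genes), and the reverse held for 2 (12.4%). AECII control replicate 2 lay over replicate 1 by more than 1 in 17 members (6.41% of genes), with the reverse in 2 (6.92%). In the experimental groups no array had the male pattern. Replicate 1 was the higher in 18 of 42 members in AECI (48.6% of genes) and in 18 of 42 in AECII (47.8%). In experimental AECI, replicate 1 lay over replicate 2 by more than 1 in 4 members (10.4% of genes), and the reverse held for 9 (11.3%). In experimental AECII these counts were 5 (6.29%) and 1 (6.92%). The replicates come in no order, so these counts describe single arrays and no condition. The lead and the male pattern fall on the same 2 arrays and cannot be told apart. Whether these 2 samples came from the same embryos is not given, so they may not be independent.

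**Figure D2:**
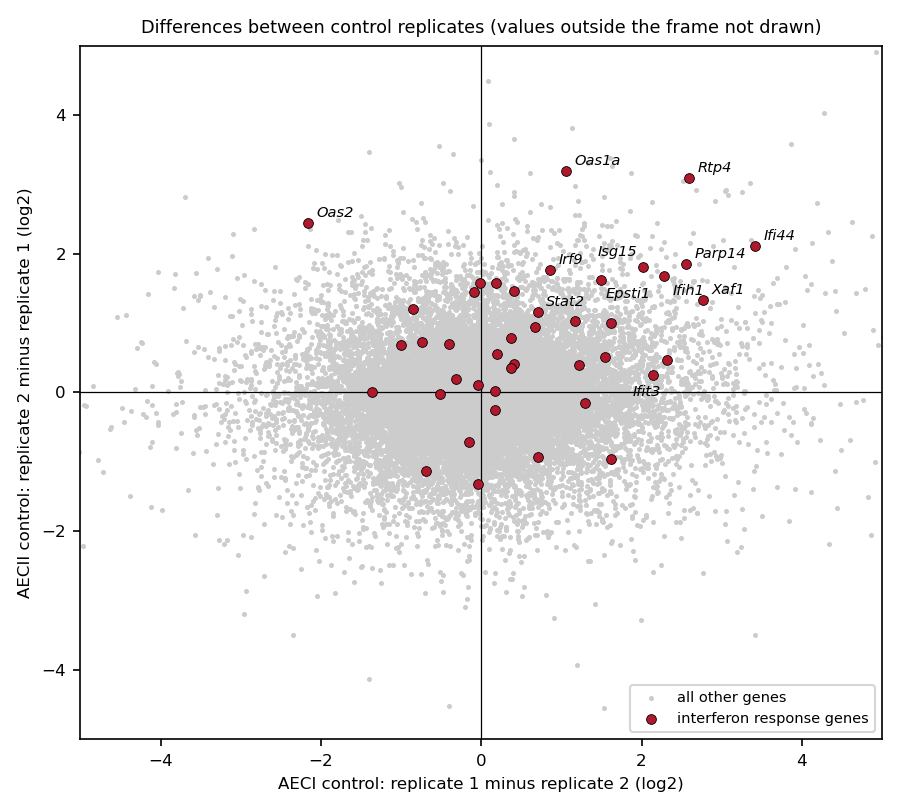
Difference between the control replicates in AECI (replicate 1 minus replicate 2, x axis) and in AECII (replicate 2 minus replicate 1, y axis), both in log2 units, for the interferon response genes (red) and all other genes (grey). The upper right of the plot holds 24 of the 42 members and 26.7% of all genes, and Rtp4, Ifi44, Isg15, Parp14, Ifih1 and Oas1a lie far out in it.

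For 7 members the 2 highest arrays were exactly those of male pattern, against 2.98% of all genes. These were Isg15, Rtp4, Ifih1, Parp14, Irf9, Stat2 and Oas1a. Isg15, the ubiquitin-like modifier that is attached to proteins after interferon is sensed, read 8.52 and 6.50 in AECI control and 6.43 and 6.42 in AECI experimental cells. The AECII control arrays gave 5.54 and 7.35, and the experimental ones 5.89 and 6.04. Its 6 other arrays lay within 5.54 to 6.50, below both leading arrays. Rtp4, a receptor-transporting protein induced by interferon, read 9.42 and 6.83, 6.08 and 5.65, 5.71 and 8.80, and 5.70 and 6.33 in the same order. The lower of its leading arrays was 1.97 above the highest of the others, the widest such gap among the 7. Ifih1 encodes MDA5, a cytoplasmic sensor of long double-stranded RNA, and read 6.59 and 4.30 in AECI control and 4.72 and 6.39 in AECII control cells. On the experimental arrays of AECI it gave 5.79 and 5.35, and on those of AECII 5.70 and 5.42. The 4 experimental arrays of Ifih1 thus lay between the higher and the lower control of each population.

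Irf9 and Stat2, parts of the complex that binds the ISRE, behaved alike at higher levels. Irf9 read 9.30 and 8.45 in AECI control and 7.77 and 9.53 in AECII control cells, and 7.59 to 8.73 on the experimental arrays. Stat2 read 8.23 and 7.53 in AECI control and 7.61 and 8.77 in AECII control cells, but its highest experimental array, at 8.17, came within 0.057 of the lower leading array. The other 2 transcription factors on the list, Irf7, which amplifies the response by inducing interferons, and Irf1, an early activator, were also higher on both arrays of male pattern than on their partners. Irf7 read 8.22 and 7.55 in control and 6.30 and 6.46 in experimental AECI, and 6.39 and 7.33 in control and 6.28 and 5.47 in experimental AECII. For Irf7 the control arrays of each population lay above both experimental ones. Irf1 varied little, from 10.45 to 11.30.

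Of the other leading members, Parp14, an ADP-ribosyltransferase, read 6.11 and 3.55 in AECI control and 3.45 and 5.30 in AECII control cells. Oas1a, one of the synthetases of 2-5A, the messenger that activates RNase L, read 5.21 and 4.14 in AECI control and 3.15 and 6.34 in AECII control cells. Its experimental arrays lay from 3.37 to 4.14. Oas1a has near-identical copies, so its level is uncertain. For 10 members with a second spot the brightest spot showed the lead on both control arrays, and the second spot showed it in 5 of these, so the pattern was not carried by all spots. In Irf9 and Stat2 the second spot agreed, at 7.73 and 6.97 in AECI control and 6.79 and 7.43 in AECII control cells for Irf9. In Ifih1 it did not, at 5.03 and 5.12 in AECI control and 4.51 and 4.31 in AECII control cells.

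**Figure D3:**
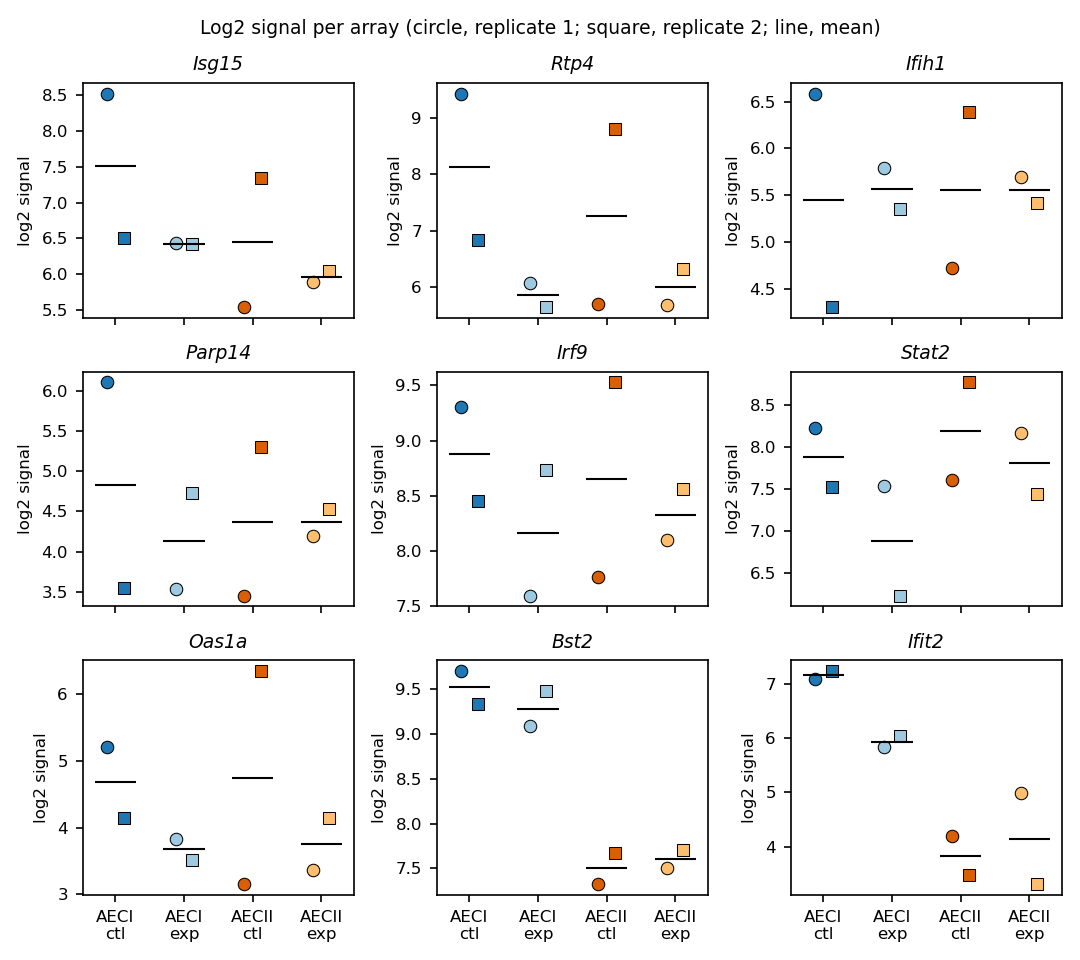
Log2 signal on each array (circle, replicate 1; square, replicate 2; line, mean of 2) in the control (ctl) and experimental (exp) groups, with a y axis of its own for each gene. In the first 7 panels AECI control replicate 1 and AECII control replicate 2 are the 2 highest arrays, while Bst2 and Ifit2 separate AECI from AECII.

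By role, the lead was shown by 4 of 4 transcription factors, by all 3 of Ifi44, Ifi35 and Epsti1, by 6 of 8 other antiviral effectors, by 3 of 5 OAS proteins, and by 2 of 4 members of the ISG15 system (Isg15 and Usp18, the protease that removes ISG15). It was shown by 2 of 6 sensors, 1 of 3 IFIT proteins, 1 of 4 GTPases, 1 of 3 genes of antigen processing and 1 of 2 PARP enzymes. These lists are short, 26.7% of all genes showed the lead, and differences between the roles were not tested. Among 75 further interferon-stimulated genes outside the 42, 42 showed the lead and 9 the opposite. The 31 measured genes of interferons, their receptors and the sensor pathway divided as 9 and 12. Oas1g, Ifi27 and Phf11d of the further list were picked here after their values were seen. Oas1g read 6.92 and 2.65 in AECI control and 3.49 and 7.52 in AECII control cells. By its symbol it is of the same family as the member Oas1a, and whether their signals are separate was not tested. Ifi27 read 13.66 and 12.03 in AECI control and 11.57 and 13.67 in AECII control cells. For Phf11d the values were 7.73 and 5.43, and 5.55 and 7.51. Of 26 immune cell markers 4 showed the lead and 6 the opposite, and their mean was 5.52 and 5.21 on the AECI control arrays and 5.72 and 5.65 on the AECII control arrays. In AECI control, 13 of the 26 were higher in replicate 1, some by far. The neutrophil genes S100a9 and S100a8 read 9.46 against 2.12 and 6.38 against 1.90, and Laptm5 and Cd68 read 5.03 against 2.32 and 7.07 against 5.87. The others were lower in replicate 1, among them the pan-leukocyte gene Ptprc at 7.21 against 7.52. Itgb2 read 5.60 against 7.18, Tyrobp 6.22 against 7.64 and Adgre1 3.84 against 4.92. In AECII control, where 11 of 26 were higher in replicate 2, S100a9 read 6.55 there against 6.60 and S100a8 5.12 against 5.28. The part of these cells in the lead was not tested.

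Several members varied widely between replicates, with and without this lead. A difference above 2 between replicates was seen in 9 members in AECI control and 4 in AECII control cells, and in 4 and 1 members in the experimental AECI and AECII. The share of all genes was not counted. The median absolute difference was 0.79 in AECI control (all genes 0.49) and 0.95 in AECII control (0.33). It was 0.54 (0.45) and 0.44 (0.32) in experimental AECI and AECII. Several genes named here had arrays below the lower quartile of 3.07, where differences are approximate. Xaf1, a pro-apoptotic protein induced by interferon, read 8.05 and 5.28 in AECI control and 4.92 and 7.99 in AECI experimental cells, and 4.17 to 6.09 on the AECII arrays. Its single high experimental array lay close to the leading control array. Epsti1 read 2.07 and 5.48 in AECI experimental cells, the widest gap there at 3.42. Ifi44 read 5.61 and 2.19 in AECI control, 1.78 and 3.89 in AECII control and 4.25 and 1.96 in AECII experimental cells, so that high and low arrays occurred in 3 groups. Oas2 ran against the lead in AECI control (2.37 and 4.52) and with it in AECII control cells (2.06 and 4.50). Dhx58, a regulator of the RNA sensors, ranged from 1.74 to 5.51 and differed by 2.27 between the AECI experimental arrays. Oasl2 differed by 2.32 and Ifit3 by 2.14 between the AECI control arrays, replicate 1 being the higher in both, and Oasl1 by 2.54 between the AECI experimental arrays.

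Promoter windows of RefSeq (GRCm38.p6, 250 bases before to 50 after each start site) were matched by symbol to 33 of 42 members. No window was given for Parp14, Zbp1, Oas2, Mx2, Dhx58, Rtp4, Parp9, Usp18 and Mx1. They were searched on both strands for the core of the ISRE, GAAA, any 2 bases and GAAA again, and for the core of the GAS, TTCNNNGAA. The ISRE core was present in 16 of 33 members against 3.99% of the 27025 genes with a window, and the GAS core in 8 of 33 against 9.55%. The members with and without an ISRE core showed the lead in 10 of 16 and 11 of 17 cases. The median difference of AECI control replicate 1 over 2 was 0.56 with and 0.67 without the core, and that of AECII control replicate 2 over 1 was 1.09 and 0.55. A match describes letters in a window and not a bound site. The 250 bases before the start site are printed here 5′ to 3′ on the strand of the gene. Both kinds of core are in capitals. The bases are given for Isg15 and Oas1a, for which the arrays of male pattern were the 2 highest. They are also given for Ifit3 and Xaf1, which had wide ranges, and for Bst2 and Ifit2, which differed between the populations. Of these genes, all but Ifit2 showed the lead. Isg15 and Oas1a were chosen after their values were seen.
Isg15: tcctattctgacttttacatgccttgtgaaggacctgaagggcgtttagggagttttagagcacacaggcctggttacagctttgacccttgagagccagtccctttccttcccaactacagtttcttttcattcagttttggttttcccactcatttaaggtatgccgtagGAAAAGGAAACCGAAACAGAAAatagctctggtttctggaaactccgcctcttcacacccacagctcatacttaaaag
Oas1a: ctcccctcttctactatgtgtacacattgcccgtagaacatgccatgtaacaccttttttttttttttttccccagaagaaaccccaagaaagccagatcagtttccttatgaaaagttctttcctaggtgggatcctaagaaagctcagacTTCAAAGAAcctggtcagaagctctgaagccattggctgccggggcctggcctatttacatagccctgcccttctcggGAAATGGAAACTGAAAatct
Ifit3: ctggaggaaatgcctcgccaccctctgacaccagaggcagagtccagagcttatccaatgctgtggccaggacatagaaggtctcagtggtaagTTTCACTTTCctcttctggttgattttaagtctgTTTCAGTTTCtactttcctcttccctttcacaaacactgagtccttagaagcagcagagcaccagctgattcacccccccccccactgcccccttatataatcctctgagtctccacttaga
Xaf1: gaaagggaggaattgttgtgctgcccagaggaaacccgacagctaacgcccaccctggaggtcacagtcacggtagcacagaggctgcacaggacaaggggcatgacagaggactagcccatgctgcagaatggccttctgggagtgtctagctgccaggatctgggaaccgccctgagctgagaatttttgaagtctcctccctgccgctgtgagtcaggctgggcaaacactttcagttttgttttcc
Bst2: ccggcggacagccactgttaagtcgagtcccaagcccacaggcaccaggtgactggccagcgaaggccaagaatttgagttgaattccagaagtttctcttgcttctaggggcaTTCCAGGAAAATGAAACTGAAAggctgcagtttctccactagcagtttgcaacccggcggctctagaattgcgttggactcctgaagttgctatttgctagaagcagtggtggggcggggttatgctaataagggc
Ifit2: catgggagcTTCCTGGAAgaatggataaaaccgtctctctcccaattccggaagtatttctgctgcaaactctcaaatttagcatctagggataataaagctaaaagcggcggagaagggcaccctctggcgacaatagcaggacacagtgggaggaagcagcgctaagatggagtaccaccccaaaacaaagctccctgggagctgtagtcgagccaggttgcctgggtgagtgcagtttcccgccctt
Isg15 (chr4:156200819-156201068, minus strand) holds 3 overlapping ISRE cores whose first bases lie 78, 72 and 66 bases before the start site. Oas1a (chr5:120907526-120907775, minus strand) holds 2 overlapping ISRE cores, at 20 and 14 bases, and a GAS core at 98. Ifit3 (chr19:34583279-34583528, plus strand) holds 2 ISRE cores, at 156 and 122 bases, both read on the opposite strand. Xaf1 (chr11:72301379-72301628, plus strand) holds neither core in this window. In Bst2 (chr8:71537473-71537722, minus strand) a GAS core at 136 bases overlaps the first of 2 overlapping ISRE cores at 130 and 124. For Ifit2 2 windows are given, and the one printed (chr19:34550444-34550693, plus strand) holds a GAS core at 241 bases and no ISRE core.

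The comparison of AECII with AECI control cells asked how the members differed between the sorted populations. Bst2 (tetherin), which holds budding viruses at the cell surface, read 9.71 and 9.34 in AECI control and 7.32 and 7.68 in AECII control cells. Its groups did not overlap, and it was lower in AECII by 2.02 (log2 difference -2.02, SE 0.28, limma adjusted p = 0.0259). Ifit2, an IFIT protein that binds viral RNA and hampers its translation, read 7.09 and 7.23 in AECI control and 4.19 and 3.48 in AECII control cells. It was lower in AECII by 3.32 (difference -3.32, SE 0.56, adjusted p = 0.0396), again without overlap. These were the 2 members past the adjusted p threshold of 0.05, where 2.83% of all genes passed in either direction. At an unadjusted p under 0.05 there were 8 members, against 16.7% of genes. Of the 8 fits that left out 1 array, Bst2 passed only in those without either AECI experimental array (adjusted p from 0.0442 to 0.169 over the 8), and Ifit2 only in those without either AECII experimental array (0.0378 to 0.223). So each call ended when any array of the compared groups was left out, while the directions stayed.

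Without both arrays of male pattern the differences were -2.02 for Bst2 and -3.04 for Ifit2, with adjusted p of 0.241 and 0.305 in a fit of fewer arrays. With the male pattern as a covariate the adjusted p was 0.0452 for Bst2 and 0.0714 for Ifit2, and with the replicate number as a block 0.0563 and 0.0609. Ifit3, which acts with the other IFIT proteins, read 6.36 and 4.22 in AECI control and 1.99 and 2.23 in AECII control cells, a difference of -3.18 (SE 0.70, adjusted p = 0.0762). Both its AECII values lay below the lower quartile of spots, so the difference is approximate, and Ifit3 and Ifit3b are near-identical copies. Ddx58, the gene of the RNA sensor RIG-I, differed by -1.33 (SE 0.38, adjusted p = 0.144), and Psmb8, a subunit of the immunoproteasome, by -1.15 (SE 0.34, adjusted p = 0.156). Ddx60, a helicase that aids RIG-I, differed by 0.95 (SE 0.26, adjusted p = 0.133) at levels near the bottom of the scale, and its second spot gave -0.65.

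Over all 42 members the median difference was -0.56, with 29 below 0, where the median over all genes was 0.005 and 49.7% of them lay below 0. The groups did not overlap, with AECII the lower, in 13 members (22.1% of genes), and with AECII the higher in 4 (23.5%). The median turned on single arrays, being -0.07 without AECI control replicate 1, -0.12 without AECII control replicate 1 and -0.97 without AECII control replicate 2. Without both arrays of male pattern it was -0.56. In bulk RNA, fewer cells of a kind and less RNA per cell cannot be told apart.

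In the experimental cells the same comparison called 1 member, Bst2, where 2.54% of all genes passed. Bst2 read 9.09 and 9.48 in AECI and 7.51 and 7.70 in AECII experimental cells, without overlap, and was lower in AECII by 1.68 (difference -1.68, SE 0.28, adjusted p = 0.0435). Its adjusted p was 0.0523 to 0.243 without 1 array, so that this call ended in all 8 of those fits while the difference stayed between -1.88 and -1.49. Rsad2 (viperin), an enzyme that makes a chain-terminating nucleotide, read 4.41 and 4.33 in AECI and 6.73 and 6.27 in AECII experimental cells. It differed by 2.13 (SE 0.50, adjusted p = 0.0804), but its second spot gave -0.69. Ifit2 differed by -1.78 (SE 0.56, adjusted p = 0.142) and Ifit3 by -1.79 (SE 0.70, adjusted p = 0.21), the same direction as in the controls. Oasl2 differed by -2.11 (SE 0.85, adjusted p = 0.221) and Ddx60 by -0.76 (SE 0.26, adjusted p = 0.166).

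The median over members was -0.26 with 26 below 0, against a median of 0.007 and 49.6% of all genes. Groups did not overlap in 18 members with AECII the lower (26.7% of genes) and in 2 with AECII the higher (28.2%). The median was -0.02 with each gene's second spot in place of its brightest one. Bst2 passed in both population comparisons, but both used the spread pooled over all 8 arrays. With only the groups compared in the fit, its adjusted p was 0.139 in control and 0.116 in experimental cells.

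**Figure D4:**
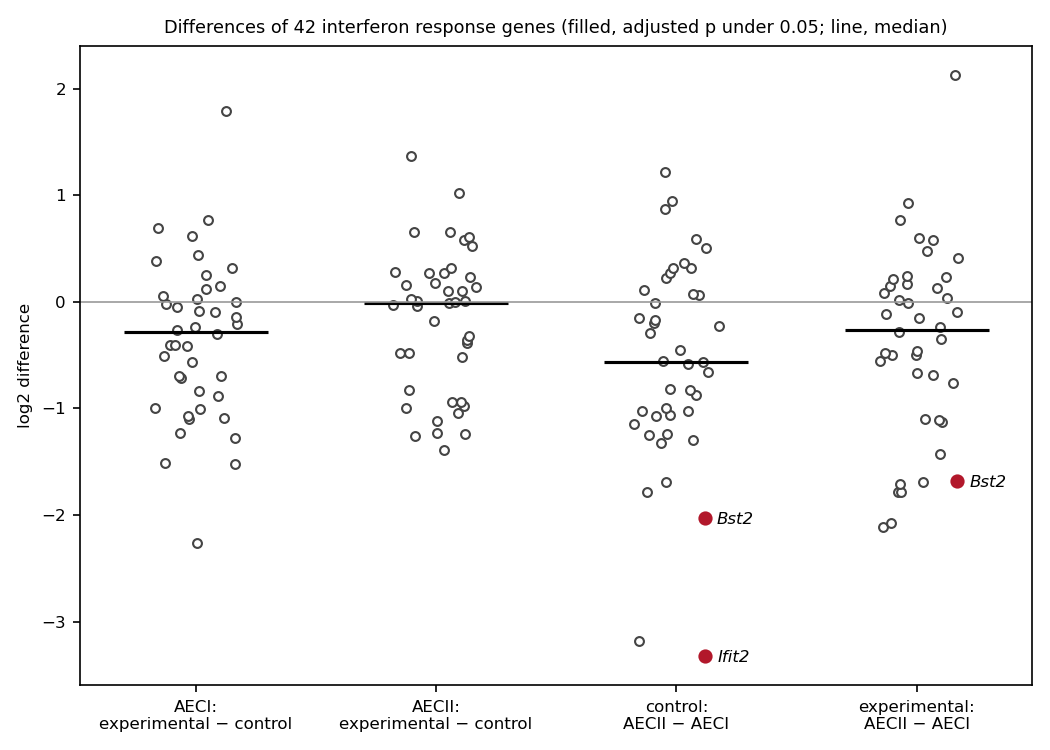
Log2 difference of each of the 42 interferon response genes in 4 comparisons (columns), each point a gene, with genes past an adjusted p of 0.05 by limma filled and named and the median as a line. The medians are -0.28, -0.01, -0.56 and -0.26, and the filled points are Bst2 and Ifit2 in control and Bst2 in experimental cells.

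The comparison of experimental with control cells within a population set the Fgfr2b genotype against its controls. The controls came from another set of females, so genotype and set of females cannot be told apart. No experimental array had the male pattern. A genotype effect below means this difference between groups only. In AECI no member passed, and 0.00411% of all genes did. At an unadjusted p under 0.05 there were 2 members against 12.4% of genes. Ddx58 read 9.19 and 9.60 in control and 8.25 and 7.49 in experimental AECI, a difference of -1.52 (SE 0.38, adjusted p = 0.262), and the groups did not overlap. Irf7, whose values are given above, differed by -1.51 (SE 0.45, adjusted p = 0.301). Ifit2, at 5.83 and 6.03 in experimental AECI, differed by -1.23 (SE 0.56, adjusted p = 0.442), Rsad2 by -1.10 (SE 0.50, adjusted p = 0.443), Psmb8 by -0.69 (SE 0.34, adjusted p = 0.467) and Parp9 by -0.57 (SE 0.25, adjusted p = 0.428). For Rsad2 and Parp9 the second spot gave the other sign.

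The median in AECI was -0.28 (all genes 0.04), with 29 members below 0 against 47.4% of genes. Groups did not overlap in 12 members with the experimental cells lower (18.6% of genes) and in 3 with them higher (21.2%). The median was -0.19 without AECI control replicate 1, -0.67 without AECI experimental replicate 2, -0.10 without AECI experimental replicate 1 and -0.55 without AECI control replicate 2. With the male pattern as a covariate it was -0.04. Markers of cell types also differed between these groups. Of 13 erythroid markers 12 lay below 0, and their mean was 7.55 and 7.91 in control and 5.13 and 6.11 in experimental AECI. Of 16 mesenchymal markers 13 lay above 0, with means of 8.83 and 9.11 in control and 9.75 and 9.60 in experimental AECI. Of 20 AT1 markers 19 lay below 0. The part of these markers in the members' differences was not tested.

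In AECII no member passed and neither did any gene (0%). At an unadjusted p under 0.05 there were 4 members against 8.24% of genes: Ddx60, Parp9, Zbp1 and Oas3. Zbp1, a sensor of Z-form nucleic acids, read 11.12 and 11.32 in control and 10.20 and 10.35 in experimental AECII, a difference of -0.94 (SE 0.25, adjusted p = 0.532). Parp9, which acts with the ubiquitin ligase DTX3L, read 11.34 and 11.08 against 10.11 and 10.08, a difference of -1.11 (SE 0.25, adjusted p = 0.529). Both genes lay without overlap, but their other spots read far lower, with means of 2.84 for Zbp1 and 5.13 to 6.27 for Parp9. The second spot of Parp9 gave a difference of 0.0353, the other sign. Ddx60 differed by -1.26 (SE 0.26, adjusted p = 0.529) and Oas3 by -1.39 (SE 0.49, adjusted p = 0.564), the 2 dimmest members. Irf7 differed by -0.98 (SE 0.45, adjusted p = 0.635) and Gbp2, a GTPase, by 1.02 (SE 0.52, adjusted p = 0.656).

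The median in AECII was -0.01 (all genes 0.07), with 22 members below 0 against 44.6% of genes. Groups did not overlap in 10 members with the experimental cells lower (19.8%) and in 3 with them higher (27.3%). Of the 13 erythroid markers 11 lay below 0, with means of 8.42 and 7.80 in control and 6.62 and 6.18 in experimental AECII. Of 20 AT1 markers 17 lay below 0, and of 16 endothelial markers 13 lay above 0. The part of these markers was not tested. The median of the members changed sign with the control array used, at -0.70 without AECII control replicate 1 and 0.25 without AECII control replicate 2. The differences between the 2 genotype effects, AECII minus AECI, had a median of 0.36 (all genes 0.03), with 25 above 0 against 51.8% of genes. No member and no gene (0%) passed that test. At an unadjusted p under 0.05 there were 2 members, Ddx60 at -1.70 (SE 0.37, adjusted p = 0.538) and Oas3 at -1.71 (SE 0.69, adjusted p = 0.57), against 8.62% of genes. The second spot of Ddx60 gave 0.50 here. The median was -0.05 without AECI control replicate 1 and -0.16 without AECII control replicate 1. An exact permutation test of 2 against 2 arrays cannot give a two-sided p below 0.33, so none was used.

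Among the genes upstream of the response, Ifnar1 and Ifnar2, the chains of the receptor for type I interferon, read 14.96 to 15.39, near the top of the scale, and 9.42 to 10.67. Ifngr1, of the receptor for interferon gamma, read 7.30 to 8.30, and Ifnlr1, of the receptor for type III interferon, 7.57 to 9.13. Ifngr2, the other chain for interferon gamma, read 12.56 and 12.68 in AECI control and 11.15 and 10.64 in AECII control cells. It was lower in control AECII by 1.73 (difference -1.73, SE 0.30, adjusted p = 0.0418) without overlap, the 1 gene of 31 in the interferon and sensor pathway that passed in any of the 5 comparisons. Of the 75 further interferon-stimulated genes 1 passed, Tor3a, an ATPase of the endoplasmic reticulum that interferon induces, at -1.92 (SE 0.26, adjusted p = 0.023) in control AECII. In that comparison 2.83% of all genes passed, so neither list stands out by its count.

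The remaining members are given by their range. Trim25, the ubiquitin ligase that activates RIG-I, read 15.80 to 15.93, at the top of the scale. Its other spots, with means of 12.95 and 10.54, both showed the lead on the 2 control arrays. Eif2ak2, the kinase PKR that halts translation on double-stranded RNA, read 9.19 to 10.01. Cmpk2, a mitochondrial nucleotide kinase, read 6.47 to 8.56, Samd9l, an antiviral factor, 7.15 to 8.96, and Ifi35 7.22 to 8.15. Psmb9, the partner of Psmb8 in the immunoproteasome, read 7.31 to 8.57, and Tap1, which carries peptides into the endoplasmic reticulum, 3.46 to 4.89. The GTPases Igtp and Irgm1 read 4.80 to 6.60 and 4.66 to 5.94, Gbp2 2.53 to 5.19 and Gbp3 2.39 to 4.00. Herc6, the ligase for ISG15 in the mouse, read 3.19 to 5.77, and Usp18 4.04 to 6.59. Mx1 and Mx2, dynamin-like GTPases that trap viral components, read 2.66 to 4.23 and 3.98 to 6.49, and Ifit1 read 2.49 to 4.77.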

How the data were processed

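RNA of FACS-isolated AECI and AECII was measured on 8 single-colour arrays (2 µg of labelled cDNA). The authors deposited 1 table of log2 signals, already normalized between arrays (between arrays, values of equal rank were within 0.00557), with limma as the tool in the submitters' processing notes. Its version and steps are not given in the sources. No counts or detection calls were used, and precision is limited by how few arrays there are. A single symbol was found for 43941 of 62976 spots by the platform annotation, updated through RefSeq, giving 24306 genes, each by its spot of highest mean. Group means were fitted over 8 arrays with limma 3.58.1 (R 4.3.3), with 4 residual and 2.26 prior degrees of freedom, and Benjamini-Hochberg adjustment over all genes at 0.05, after a test on simulated data. The members and lists were chosen with earlier results of these data known. Named were members past the threshold or among the 6 smallest p per comparison, those differing by over 2 log2 between replicates, bright examples per role and the receptors. The 21 alternatives were other spots, scaling, priors, weights, blocks, covariates and arrays left out. The replicate number was not taken to pair samples in the main fit. Replicate 1 minus replicate 2 correlated between groups at -0.10 to 0.04 over all genes. Over the 42 members the correlations ran from -0.30, between the control groups, to 0.15, between the experimental groups. These values cannot decide whether samples shared animals.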

Additional observations from a re-analysis of the deposited data

How the results depend on the processing

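In control AECII against AECI, 2 members passed. This became 4 with a mean-variance trend, 1 with array weights, 1 with the male pattern as a covariate, and 0 with only the groups compared, without both arrays of male pattern, with the replicate number as a block (replicate block), and with that block crossed in AECII control, an alternative chosen after seeing the data. Leaving out 1 array gave 0 to 1, and the median of members ran from -0.971 to -0.0745. In experimental cells 1 member passed, against 2 with the trend and 0 with the second spot, only the groups compared, the replicate block, its crossed form, without both arrays of male pattern, and without any 1 array (0 to 0, median -0.48 to -0.26). In AECII by genotype the trend called 1 member, Parp9, and the median ran from -0.70 to 0.25 without 1 array. In AECI by genotype it ran from -0.67 to -0.10 and for the difference of genotype effects from -0.16 to 0.67, with 0 members called in each. Signs turned with the second spot for Parp9 in AECI (0.31) and AECII (0.0353), Rsad2 in AECI (0.87) and in experimental cells (-0.69), and Ddx60 in control cells (-0.65) and in the difference of genotype effects (0.50), and with the mean of spots for Parp9 in AECI (0.003315). The cause was not tested. Dim members near the lower quartile of 3.07 have approximate differences.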
